A study of Mus musculus with 50 samples.

Results

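Tsc22d3, Nfkbia, Dusp1, Zfp36, Zfp36l1 and Errfi1 are genes through which glucocorticoids are known to restrain inflammatory and growth factor signalling. Peaks of the glucocorticoid receptor (GR) and of the transcription factor NFIA were counted near these 6 genes in every deposited peak list, and the counts were set against those of all 21938 protein-coding genes of the GENCODE M21 annotation. The 6 genes were taken by name for this role, with earlier results of these data known. A peak was assigned to a gene when its summit lay within 50 kb of the 5′ end of the gene record on mm10, and 70 merged sites fell within that distance of the 6 starts. Peaks came from CUT&RUN, an assay in which an antibody directs a nuclease to the bound protein so that short DNA fragments around it are released and sequenced.

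GR was profiled in astrocytes of the primary visual cortex (V1) at P14. These were DR astrocytes of dark-reared wild-type mice (n = 3), NR astrocytes of normally reared wild-type mice (n = 3), and GR-KO (n = 2) and GR-Con (n = 2) astrocytes of normally reared mice. GR-KO and GR-Con mice carried floxed GR alleles and received a virus that expressed active Cre or inactive ΔCre together with a GFP tag from an astrocyte promoter (GfaABC1D). The ΔCre virus also tagged the wild-type DR and NR astrocytes. GR was further profiled in oligodendrocytes (Olig2-Cre), inhibitory neurons (Slc32a1-Cre) and excitatory neurons (Slc17a7-Cre) of normally reared P14 mice (n = 3 each), whose nuclei were tagged by a Sun1-GFP transgene rather than a virus, so that cell type and labelling method cannot be told apart. NFIA was profiled in NR astrocytes and in the same other cell types (n = 3 each). The NFIA astrocytes are labelled wild type, whereas the methods name floxed GR mice for NFIA in astrocytes, so their genotype is uncertain. Each of these libraries held 175000 sorted nuclei pooled from several mice. GR was also profiled in 3T3 cells, a mouse fibroblast line, after 2 h with 200 nM dexamethasone (DEX, a synthetic glucocorticoid) or vehicle, from 50000 or 250000 nuclei (n = 2 each). The 39 lists, 27 for GR and 12 for NFIA, formed 15 groups. The other 11 samples were not analysed here.

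GR is held inactive in the cytoplasm until hormone binds it, and then enters the nucleus and binds DNA directly or through other factors such as AP-1 and NF-κB. Several genes it switches on dampen inflammation. Nfkbia encodes IκBα, which retains NF-κB in the cytoplasm, and Tsc22d3 encodes GILZ, which binds NF-κB and AP-1. Dusp1 encodes a phosphatase that inactivates p38 and JNK kinases. Zfp36 (tristetraprolin) and Zfp36l1 bind AU-rich elements and speed the decay of cytokine mRNAs, and Errfi1 (MIG6) inhibits the EGF receptor kinase. NFIA is a lineage factor of astrocytes.

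The lengths of the lists differed widely and set how many peaks any gene could have. DR lists held 69, 28 and 293 peaks, against 14012, 2262 and 21539 in NR lists. GR-KO lists held 1846 and 413 peaks, against 7761 and 6792 in GR-Con lists, and peak lists carry no other measure of the deletion. DEX lists held 720, 1391, 5010 and 4654 peaks, against 189, 320, 382 and 1035 in vehicle lists. NFIA lists of astrocytes held 22373 to 27143 peaks, and the lists of other V1 cells held 4 to 4563 GR peaks and 1 to 4173 NFIA peaks. Read depth is unknown, since the lists give none. In NR astrocytes all 8 of 8 astrocyte marker genes had a GR site in 2 or more libraries, against 1 of 8 markers of inhibitory neurons, 2 of 8 of microglia, 3 of 8 of the oligodendrocyte lineage and 3 of 8 of excitatory neurons, beside 50.4% of all coding genes.

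**Figure D1:**
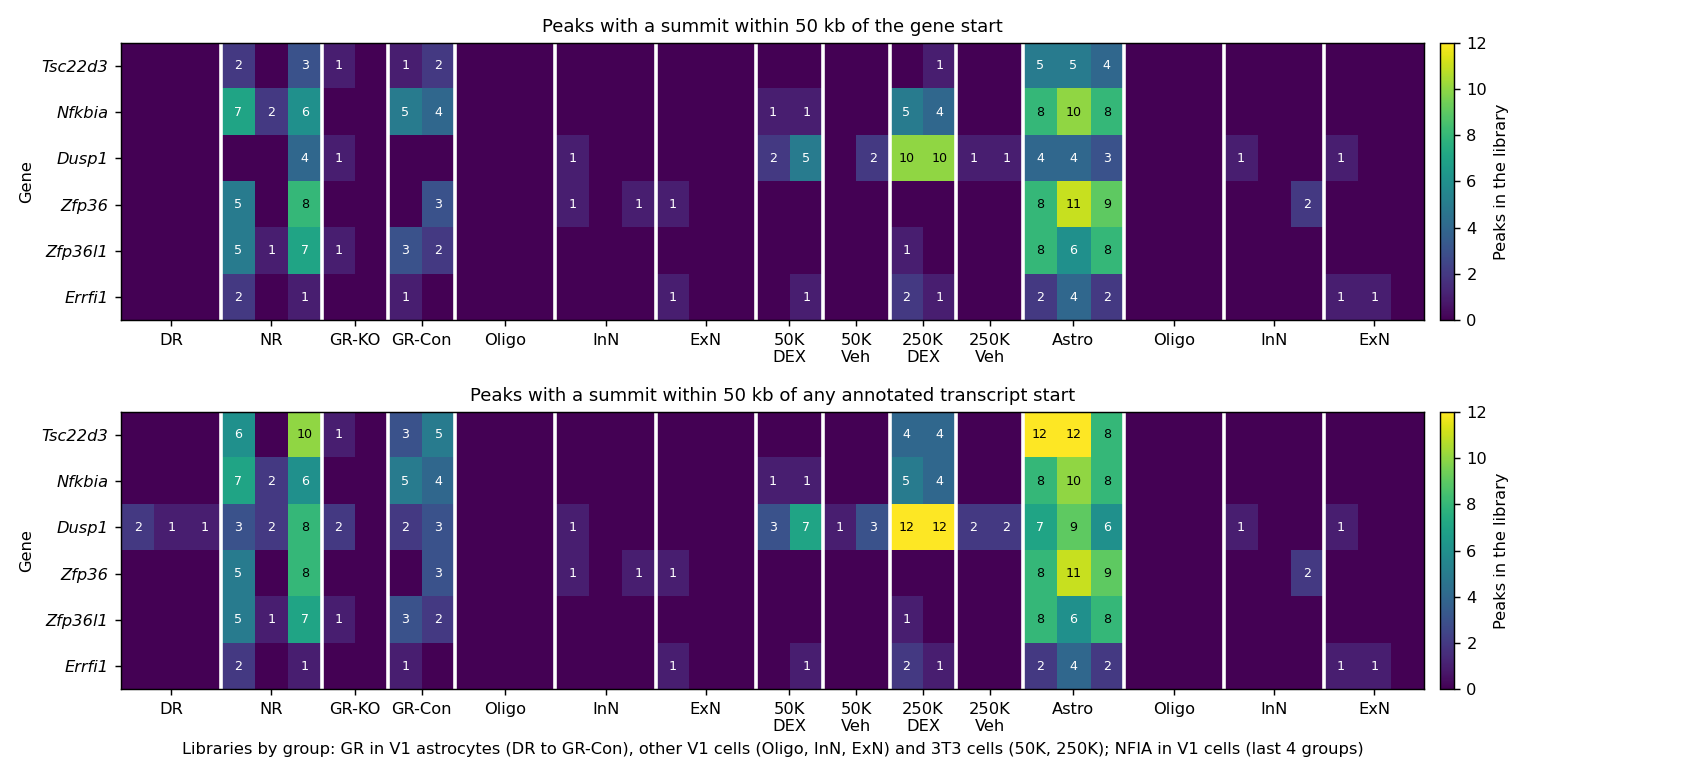
Number of peaks (colour and digits) near each of the 6 genes (rows) in each of the 39 libraries (columns, in replicate order within a group), with summits within 50 kb of the gene start in the upper panel and of any annotated transcript start in the lower panel. NFIA astrocyte libraries had 2 to 11 peaks at every gene in the upper panel, DR and oligodendrocyte columns were empty there, and Dusp1 reached 10 peaks in each DEX library from 250000 nuclei.

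The start used matters for 2 of the genes. The Dusp1 record starts at chr17:26562128 because of 1 long transcript, whereas 3 shorter transcripts start 53609 to 53656 bp farther along, the last of them at the RefSeq start. The Tsc22d3 record starts at chrX:140600659, and a short transcript of the gene starts 57472 bp away from it. Values are therefore given for the gene start, and the main counts also for any annotated transcript start, which brings the sites to 87. The Dusp1 window also holds the start of Ergic1, and the Zfp36 window holds those of Med29, Paf1, Plekhg2, Rps16 and Supt5, so a peak there is near Dusp1 or Zfp36 without being assigned to it alone.

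Sequences are shown for the sites on which the description turns, as 101 bases around the summit, top strand, from the RefSeq assembly GRCm38.p6 (mm10). Each was searched on both strands for the GR element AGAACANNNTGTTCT with up to 2 mismatches, its core ACANNNTGT, an NFI pair TTGGCNNNNNGCCAA with up to 1 mismatch, the short NFI motif TTGGCA, the AP-1 motif TGANTCA and the CRE TGACGTCA. The core lies inside the full GR element, so a match to the full element usually counts for both. Capitals mark these matches. For Nfkbia, Zfp36 and Dusp1 the site named by the fixed rule is given by position only.

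Nfkbia, the inhibitor of NF-κB, had no peak in any DR library, against 7, 2 and 6 GR peaks in NR libraries R1, R2 and R3. The groups did not overlap, and the difference of −5.0 peaks had the smallest p that 3 against 3 libraries allow (exact permutation test, two-sided, p = 0.1). GR-KO libraries had 0 and 0 peaks, against 5 and 4 in GR-Con libraries, a difference of −4.5 (exact permutation p = 0.333, the smallest for 2 against 2). All 9 GR libraries of other V1 cells had 0, so NR astrocytes stood 5.0 peaks higher (exact permutation p = 0.00909, the smallest for 3 against 9). Nfkbia was thus called in every NR and GR-Con library and in no DR, GR-KO or other V1 library. In 3T3 cells it had 1 and 1 peaks with DEX from 50000 nuclei and 5 and 4 from 250000 nuclei, against 0 in all 4 vehicle libraries. It was the only member whose DEX and vehicle libraries did not overlap (difference 2.75, exact permutation within nuclei number, p = 0.0556, the smallest possible). NFIA had 8, 10 and 8 peaks in astrocytes, against 0 in all 9 libraries of other V1 cells.

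The Nfkbia promoter site, chr12:55492486-55492808, spans the annotated start and was called in 10 libraries, comprising all 3 NR, both GR-Con, both DEX from 250000 nuclei and all 3 NFIA astrocyte libraries. Its fold enrichment over background was 8.52, 5.98 and 14.3 for GR in NR and 10.2, 12.6 and 8.18 for NFIA. A neighbouring site within 500 bp of another annotated Nfkbia start, chr12:55491837-55492187, was among the highest NFIA peaks, where its folds ranked 84, 60 and 395 in lists of 27143, 25441 and 22373. There GR was called in NR R1 and R3 with folds of 11.3 and 14.1 and in GR-Con with 8.89 and 8.78. A distal site 49.3 kb along from the start, chr12:55443185-55443497, was called in all 3 NR, both GR-Con and all 3 NFIA astrocyte libraries. By contrast, the site 30.5 kb along from the start, chr12:55461871-55462276, was called in the 4 DEX libraries only, with folds of 6.40 and 5.17 from 50000 nuclei and 12.3 and 9.61 from 250000 nuclei. Its sequence, shown because the site was confined to DEX libraries among the 39, holds none of the motifs searched.
Nfkbia DEX site, chr12:55462161-55462261: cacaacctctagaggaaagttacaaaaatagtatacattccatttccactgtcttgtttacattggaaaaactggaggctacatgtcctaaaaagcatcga

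Tsc22d3, which encodes GILZ, had no peak in any DR library, against 2, 0 and 3 in NR libraries, and the groups overlapped (difference −1.67, exact permutation p = 0.4). GR-KO libraries had 1 and 0 peaks, against 1 and 2 in GR-Con libraries (difference −1.0, exact permutation p = 0.667). The 9 GR libraries of other V1 cells had 0. DEX libraries had 0 and 0 peaks from 50000 nuclei and 0 and 1 from 250000 nuclei, against 0 in all 4 vehicle libraries (difference 0.25, exact permutation within nuclei number, p = 1.0). Counted from any annotated start, NR libraries had 6, 0 and 10 peaks and DR libraries still 0, GR-KO libraries had 1 and 0 against 3 and 5 in GR-Con libraries, and DEX libraries had 0 and 0 from 50000 nuclei and 4 and 4 from 250000 nuclei, against 0 in all 4 vehicle libraries. NFIA had 5, 5 and 4 peaks near the gene start in astrocytes (12, 12 and 8 from any start), against 0 in all other V1 libraries. Among the 3 NR libraries only R2, which has the shortest list, lacked Tsc22d3 peaks.

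The Tsc22d3 site named by the rule lies in an intron 27.5 kb into the gene, chrX:140572961-140573308, and was called in 9 libraries. It appeared in NR R1 and R3 (folds 9.81 and 11.5), in GR-KO R1 (7.04), in both GR-Con libraries (9.81 and 15.7, the second ranking 39 of 6792), in 1 DEX library and in all 3 NFIA astrocyte libraries. It is 1 of the 3 sites within 50 kb of a member's gene start at which a GR-KO library had a peak. Its summit window holds a core of the GR element. The promoter of the short transcript, chrX:140543093-140543584, was called in NR R1 and R3, both GR-Con and all 3 NFIA astrocyte libraries and in no 3T3 library. A site farther along, chrX:140511084-140511573, was called in the same astrocyte libraries and in both DEX libraries from 250000 nuclei. The closest match to the full GR element among the 87 sites, with 1 mismatch, lay in a peak called in 1 DEX library from 250000 nuclei.
Tsc22d3 intronic site, chrX:140573067-140573167: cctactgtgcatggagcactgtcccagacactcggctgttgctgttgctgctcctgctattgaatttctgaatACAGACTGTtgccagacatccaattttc
Tsc22d3 DEX site, chrX:140527314-140527414: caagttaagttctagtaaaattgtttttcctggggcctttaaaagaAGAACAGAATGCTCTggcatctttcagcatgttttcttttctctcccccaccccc

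Dusp1, the MAP kinase phosphatase, had more peaks than any other member in each of the 4 DEX libraries. Lists of 3T3 cells and of V1 cells passed different q thresholds, so their peak numbers were not tested against each other, and shared positions and folds are set side by side as a description. From the gene start, DEX libraries had 2 and 5 peaks from 50000 nuclei and 10 and 10 from 250000 nuclei, against 0, 2, 1 and 1 in vehicle libraries. The 2 peaks of 1 DEX library equalled the 2 of 1 vehicle library, and otherwise the groups were apart (difference 5.75, exact permutation within nuclei number, p = 0.111). NR libraries had 0, 0 and 4 peaks and DR libraries 0 (DR minus NR −1.33, exact permutation p = 1.0). GR-KO libraries had 1 and 0 peaks, against 0 and 0 in GR-Con libraries. From any annotated start the numbers were 2, 1 and 1 in DR, against 3, 2 and 8 in NR libraries, and 2 and 0 in GR-KO, against 2 and 3 in GR-Con libraries, so that the GR-KO minus GR-Con difference of 0.5 became −1.5. NFIA had 4, 4 and 3 peaks in astrocytes (7, 9 and 6 from any start), against 0, 0 and 1 as the lowest, median and highest of other V1 libraries.

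The 9 Dusp1 sites called in both DEX libraries from 250000 nuclei lay in introns of Dusp1 or Ergic1. All 9 lay upstream of the RefSeq start, chr17:26508472, so those in Dusp1 are intronic only to its long transcript. Of the 9 sites, 7 were called in no vehicle library and none in any astrocyte GR library. Over all 2885 sites that both these DEX libraries called, 22.1% overlapped a vehicle peak, 1.53% a DR peak and 1.14% a GR-KO peak. A site called in 2 or more NR libraries overlapped 7.38% of them, so such absence was common among DEX sites. The strongest, chr17:26592485-26592885, lies 30.5 kb before the gene start within Ergic1, and more than 50 kb from the RefSeq start. It had folds of 22.2 and 26.4, ranking 13 of 5010 and 5 of 4654, and 16.2 and 9.93 from 50000 nuclei, against 8.54 and 10.1 in vehicle libraries from 250000 nuclei and 10.8 in 1 vehicle library from 50000 nuclei. Its summit window holds an AP-1 motif. A pair of sites in an intron of the long Dusp1 transcript, chr17:26535266-26535526 and chr17:26535821-26535990, were called in both DEX libraries from 250000 nuclei and in 1 from 50000 nuclei. The first holds a GR element with 2 mismatches, and the second a core and an AP-1 motif.
Dusp1 upstream site, chr17:26592603-26592703: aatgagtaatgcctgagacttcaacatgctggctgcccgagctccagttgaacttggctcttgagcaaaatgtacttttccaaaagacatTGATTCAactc
Dusp1 intronic site A, chr17:26535305-26535405: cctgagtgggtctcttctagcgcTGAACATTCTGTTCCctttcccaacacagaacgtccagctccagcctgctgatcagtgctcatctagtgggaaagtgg
Dusp1 intronic site B, chr17:26535887-26535987: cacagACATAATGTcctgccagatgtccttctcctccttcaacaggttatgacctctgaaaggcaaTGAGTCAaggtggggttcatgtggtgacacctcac

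The site shared most widely near any member, chr17:26504053-26504618, lies 3.5 kb beyond the nearest Dusp1 transcript start, just past the 3′ end of the gene, and was called in 20 of 39 libraries. These were all 3 DR, all 3 NR, 1 GR-KO, both GR-Con, all 8 3T3 and all 3 NFIA astrocyte libraries. The best folds were 7.82, 8.23 and 16.5 in DR, against 9.08, 21.5 and 10.2 in NR. In 3T3 cells from 250000 nuclei they were 20.7 and 15.5 with DEX, against 17.4 and 17.2 with vehicle. Of 50410 merged sites, 21 were called in all 3 DR libraries, 65 in all 8 3T3 libraries, and 5, this one included, in all DR, NR, GR-Con and 3T3 libraries. The Dusp1 promoter itself, chr17:26508356-26508783, was called in all 3 NR libraries (8.71, 8.24 and 9.44), in no DR library, in no GR-KO library and 1 GR-Con library, and in no 3T3 library. NFIA folds there were 34.9, 23.4 and 21.6, at percentiles 99.3, 97.5 and 98.1 of their lists. The promoter window holds a CRE, the element bound by CREB, and the window of the 3′ site ends in the short NFI motif. The start of the long Dusp1 record has its own promoter site, named by the rule, at chr17:26561352-26561546 and close to the Ergic1 start, which was called in NR R3 and in 2 NFIA astrocyte libraries.
Dusp1 3-prime site, chr17:26504110-26504210: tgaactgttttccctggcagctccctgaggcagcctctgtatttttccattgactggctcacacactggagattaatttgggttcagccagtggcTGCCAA
Dusp1 promoter site, chr17:26508562-26508662: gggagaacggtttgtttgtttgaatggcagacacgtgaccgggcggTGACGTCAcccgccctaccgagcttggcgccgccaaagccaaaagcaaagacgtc

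**Figure D2:**
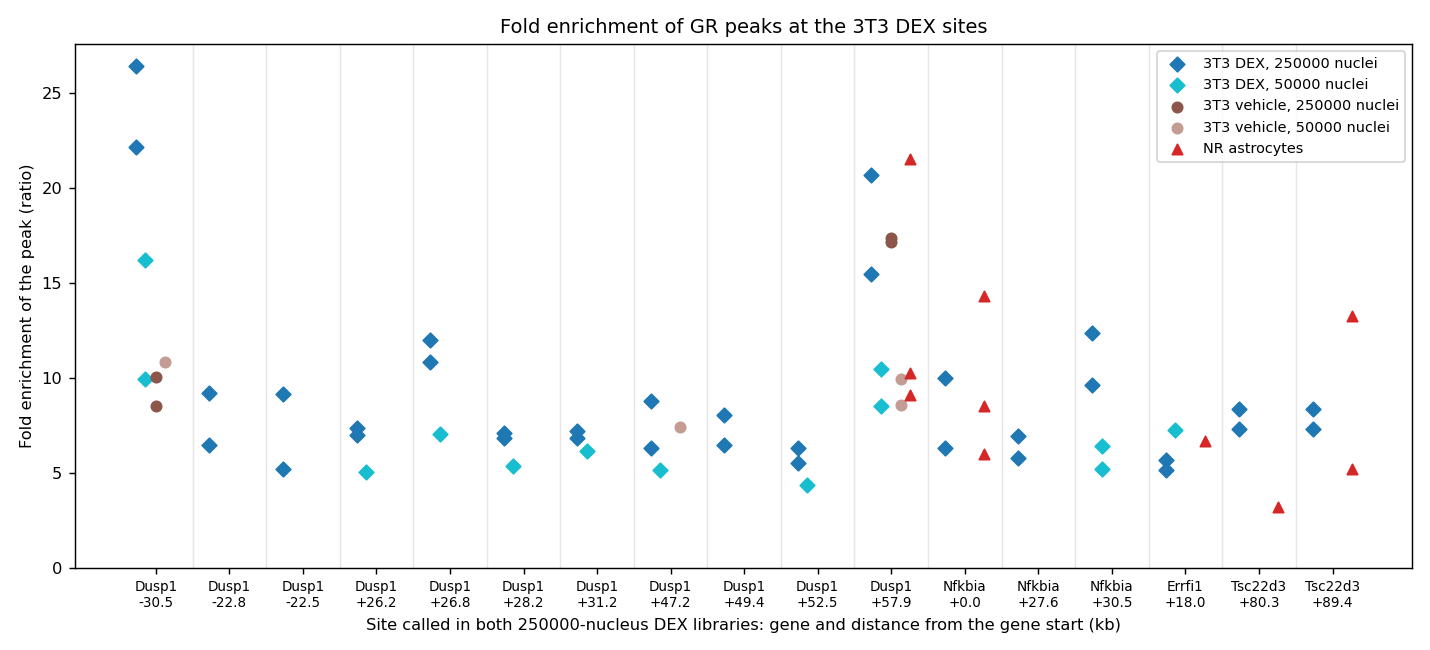
Fold enrichment of GR peaks (vertical axis, ratio over background) at the sites within 50 kb of any transcript start that both DEX libraries from 250000 nuclei share (horizontal axis, gene and distance from the gene start in kb), with DEX, vehicle and NR libraries as separate markers. Vehicle points appear at 3 Dusp1 sites only, and NR points at the Dusp1 +57.9 kb site, where 3 NR libraries lie between 9.08 and 21.5, and at Nfkbia, Errfi1 and Tsc22d3 sites.

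Zfp36 and Zfp36l1, the mRNA decay factors, both had GR peaks in NR and GR-Con astrocytes, and Zfp36 also had single GR peaks in neurons. Zfp36 had no peak in DR, against 5, 0 and 8 in NR libraries (difference −4.33, exact permutation p = 0.4), and 0 and 0 in GR-KO, against 0 and 3 in GR-Con libraries. Zfp36 had 1 GR peak in 3 of 9 libraries of other V1 cells, 2 of inhibitory and 1 of excitatory neurons, whose lists were far shorter than those of NR R1 and R3, and 0 in the other 6. All 8 3T3 libraries had 0. Zfp36l1 had no peak in DR, against 5, 1 and 7 in NR libraries (difference −4.33, exact permutation p = 0.1, the smallest possible), and 1 and 0 in GR-KO, against 3 and 2 in GR-Con libraries (difference −2.0, exact permutation p = 0.333, the smallest possible). DR and NR, and likewise GR-KO and GR-Con, did not overlap for Zfp36l1, whereas for Zfp36 NR R2 and GR-Con R1 had none. All 9 other V1 libraries had 0 GR peaks at Zfp36l1, and 1 of 4 DEX libraries had 1. NFIA had 8, 11 and 9 peaks at Zfp36 in astrocytes, against at most 2 in other V1 libraries, and 8, 6 and 8 at Zfp36l1, against 0.

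Of the 4 NR sites of Zfp36 called in at least 2 libraries, the one named by the rule, chr7:28350482-28350760, is the promoter of the ribosomal protein gene Rps16. Its folds were 10.8 and 27.6 in NR R1 and R3, the second ranking 90 of 21539, and 18.7, 22.6 and 18.8 for NFIA. A site within 500 bp of a Zfp36 transcript start, chr7:28379287-28379437, was called in NR R3 and in 2 NFIA astrocyte libraries. A site 2.9 kb before the gene start, chr7:28383068-28383199, was called in 2 GR libraries and 1 NFIA library of inhibitory neurons and in no astrocyte library, the one member site with a repeated GR call outside astrocytes and 3T3 cells. For Zfp36l1 the rule named a site 48.5 kb along from the start, chr12:80064379-80064619, in an intron of the annotated gene Gm36660. It was called in all 3 NR libraries (14.2, 12.3 and 17.7), in GR-KO R1 (10.8, ranking 82 of 1846), in both GR-Con libraries (13.9 and 9.70) and in all 3 NFIA astrocyte libraries (20.9, 12.4 and 6.43). It stood at percentiles 96.4, 96.0 and 96.1 of the NR lists. No motif searched was found in its window, which is shown because it was called in 9 libraries.
Zfp36l1 distal site, chr12:80064462-80064562: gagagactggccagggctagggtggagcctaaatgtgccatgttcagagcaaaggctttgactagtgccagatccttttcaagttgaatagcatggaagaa

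Errfi1, the EGF receptor inhibitor, had the fewest peaks in all, 19 in 12 of 39 libraries. DR libraries had 0, against 2, 0 and 1 in NR libraries (difference −1.0, exact permutation p = 0.4), and GR-KO libraries 0 and 0, against 1 and 0 in GR-Con libraries. Other V1 libraries had 0, 0 and 1 as lowest, median and highest. DEX libraries had 0 and 1 peaks from 50000 nuclei and 2 and 1 from 250000 nuclei, against 0 in all 4 vehicle libraries (difference 1.0, exact permutation within nuclei number, p = 0.167). NFIA had 2, 4 and 2 peaks in astrocytes, against 0, 0 and 1 in other V1 libraries. The Errfi1 promoter, chr4:150854818-150855237, shared with 1700045H11Rik, was called in NR R1 and R3 (5.20 and 7.05), in all 3 NFIA astrocyte libraries and also in excitatory neurons, with 1 GR library and 2 NFIA libraries. It holds a CRE. The DEX site, chr4:150871830-150872023, 18.0 kb along from the start, was called in both DEX libraries from 250000 nuclei, in 1 from 50000 nuclei and in NR R1, and holds a core of the GR element.
Errfi1 promoter site, chr4:150854945-150855045: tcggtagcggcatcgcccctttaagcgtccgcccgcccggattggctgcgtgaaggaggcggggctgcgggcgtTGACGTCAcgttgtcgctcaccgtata
Errfi1 DEX site, chr4:150871899-150871999: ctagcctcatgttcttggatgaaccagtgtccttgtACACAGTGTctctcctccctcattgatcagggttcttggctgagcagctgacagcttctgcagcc

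**Figure D3:**
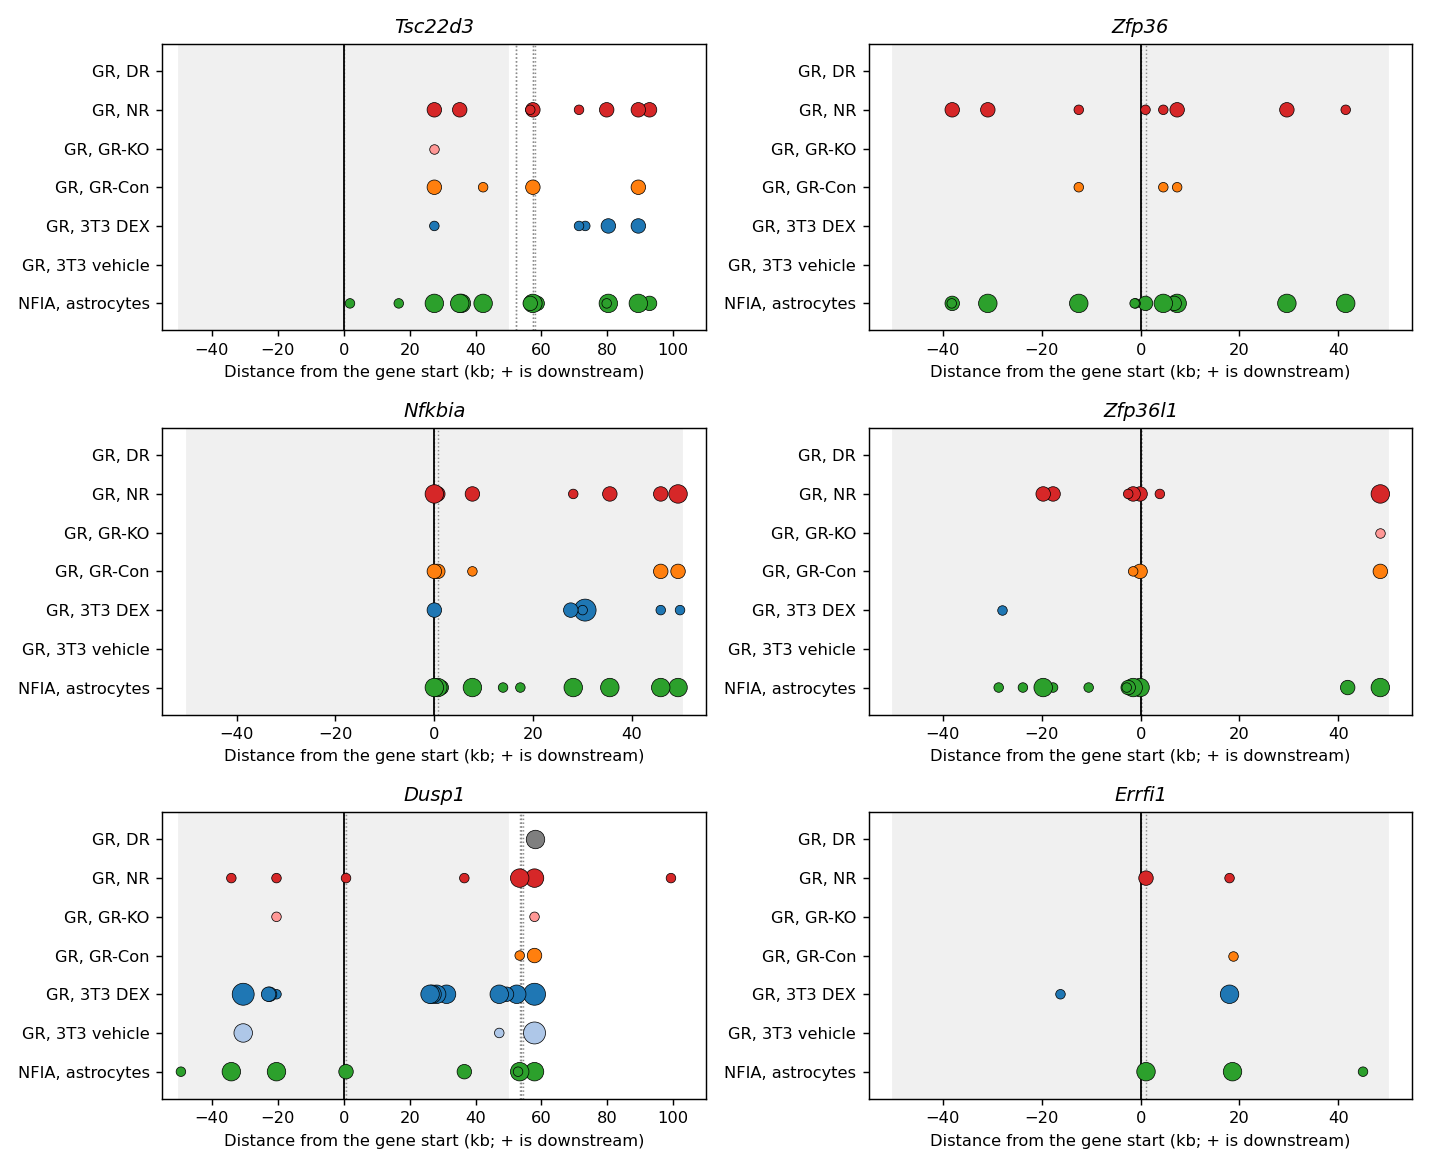
Merged sites along each gene (horizontal axis, distance from the gene start in kb, positive in the direction of transcription) for 7 groups of astrocyte and 3T3 libraries (rows), the circle size growing with the number of libraries that called the site. The shaded band is the 50 kb window, the solid line the gene start and dotted lines the other annotated starts. NFIA and NR sites share positions at most genes, and most DEX sites of Dusp1 lie apart from them, other than those at +57.9 and −20.4 kb.

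Across the 6 genes, DR libraries had 0 peaks in all, against 21, 3 and 29 in NR libraries. Nfkbia and Zfp36l1, 2 of 6, were lower in DR with no overlap between the groups, and 10.6% of all coding genes were as well. The median difference over the 6 genes was −3.0 peaks, beside −0.667 over all coding genes. No member passed the adjusted threshold (adjusted p = 0.779 to 1.0, exact permutation tests with Benjamini-Hochberg adjustment over all 21938 genes), nor could any gene, since an unadjusted p under 0.05 cannot be reached and 0 genes had one. With lists this short, the average coding gene had 0.00346, 0.00191 and 0.0160 peaks in DR libraries, so the lack of peaks at these 6 genes cannot be told apart from the length of the lists. Counted from any annotated start, DR libraries had 2, 1 and 1 peaks, all at the Dusp1 3′ site. Without NR R2 more members did not overlap. The NR lists left, R1 and R3, had a peak near 52.1% and 63.6% of all coding genes, so non-overlap became easier for any gene.

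GR-KO libraries had 3 and 0 peaks near the 6 genes, against 10 and 11 in GR-Con libraries. Nfkbia and Zfp36l1 were again the 2 of 6 lower without overlap, beside 20.0% of all coding genes. The median difference was −1.25 peaks over the members and 0 over all coding genes. Per 1000 peaks of the list, the members took 1.63 and 0 in GR-KO, against 1.29 and 1.62 in GR-Con libraries. The 3 peaks left in GR-KO R1 were at Tsc22d3, Dusp1 and Zfp36l1, and those at Tsc22d3 and Zfp36l1 coincided with NR and GR-Con sites. From any annotated start Tsc22d3 joined them, 3 of 6 beside 22.6% of coding genes. Without GR-Con R1 more members did not overlap, but 1 GR-Con library was left, with a peak near 33.8% of all coding genes. With 2 libraries against 2, no adjusted p could pass and 0 genes had an unadjusted p under 0.05.

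NR astrocytes had 21, 3 and 29 GR peaks near the 6 genes, against 0, 0 and 2 as the lowest, median and highest of 9 libraries of other V1 cells. Nfkbia and Zfp36l1 were higher without overlap, 2 of 6 beside 4.52% of all coding genes. Their adjusted p was 0.201, Tsc22d3 and Zfp36 had 0.246, Errfi1 0.399 and Dusp1 0.832 (exact permutation tests, Benjamini-Hochberg adjustment). No coding gene passed the adjusted threshold, while 2040 genes (9.3%) had an unadjusted p under 0.05. The median difference was 2.83 peaks over the members and 0.556 over all coding genes. Counted from any annotated start, Dusp1 joined the members without overlap, 3 of 6 beside 5.08% of coding genes. Without NR R2 more members did not overlap from the gene start, and non-overlap became easier for any gene. The NR lists left, R1 and R3, had a peak near 52.1% and 63.6% of all coding genes.

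DEX libraries had 3 and 7 peaks near the 6 genes from 50000 nuclei and 18 and 16 from 250000 nuclei, against 0 and 2, and 1 and 1, in vehicle libraries. Nfkbia alone was higher with no overlap at either number of nuclei, 1 of 6 beside 1.47% of all coding genes, and no adjusted p was under 1.0 for any member (0 genes had an unadjusted p under 0.05, which the design cannot reach). Dusp1 supplied 27 of the 44 DEX peaks. The vehicle libraries had peaks near Dusp1 and near no other member. Per 1000 peaks, the members took 4.17, 5.03, 3.59 and 3.44 in DEX, against 0, 6.25, 2.62 and 0.966 in vehicle libraries. Leaving out the first DEX or the second vehicle library of 50000 nuclei raised the number of members without overlap. Each omission left 1 library in that group.

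NFIA libraries of astrocytes had 35, 40 and 34 peaks near the 6 genes, against at most 2 in each library of other V1 cells. All 6 members were higher without overlap, beside 50.4% of all coding genes, and all 6 passed the adjusted threshold (adjusted p = 0.0180 each, exact permutation p = 0.00909 with Benjamini-Hochberg adjustment), beside 55.2% of all coding genes. Means were 9.33 ± 1.53 peaks at Zfp36 in astrocytes and 0.222 ± 0.667 in other V1 cells, 8.67 ± 1.15 and 0 at Nfkbia, 7.33 ± 1.15 and 0 at Zfp36l1, 4.67 ± 0.577 and 0 at Tsc22d3, 3.67 ± 0.577 and 0.222 ± 0.441 at Dusp1, and 2.67 ± 1.15 and 0.222 ± 0.441 at Errfi1 (SD, n = 3 and 9). The median difference was 6.0 peaks over the members and 1.33 over all coding genes. All 6 calls were lost with the replicate number as a block (exact permutation, adjusted p = 0.0588) and when any astrocyte library was left out (adjusted p = 0.0671 to 0.0702). Both settings allow fewer arrangements, which raises the smallest possible p for every gene, so the loss is not particular to the members. With a 10 kb window Tsc22d3, Dusp1 and Errfi1 did not pass, and per 1000 peaks of the list Dusp1, Zfp36 and Errfi1 did not.

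**Figure D4:**
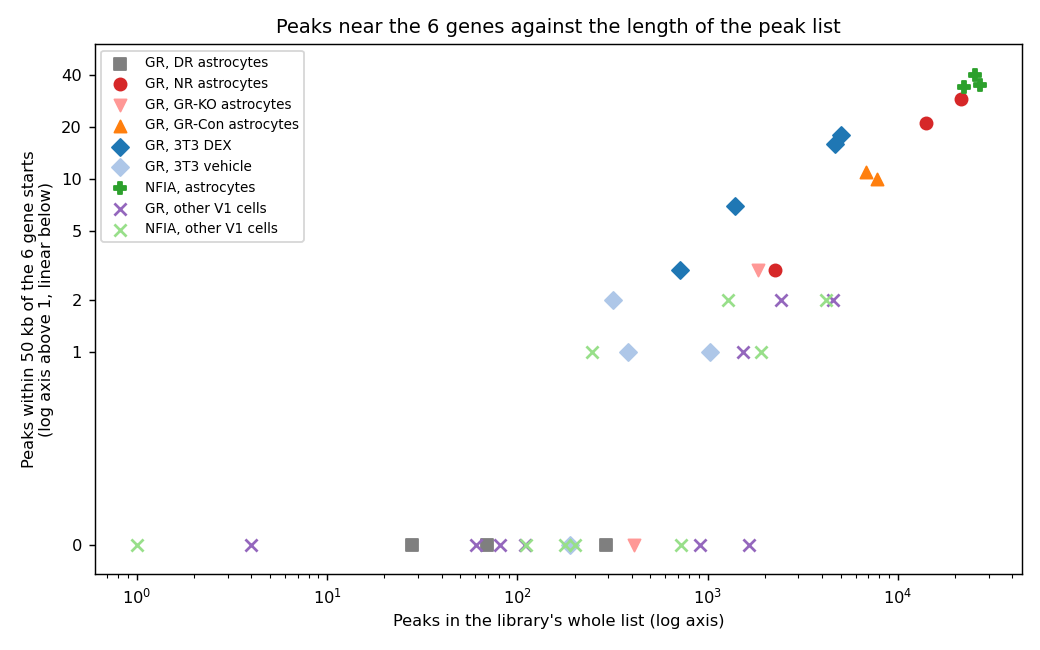
Peaks within 50 kb of the 6 gene starts (vertical axis, log above 1) against the number of peaks in the whole list (horizontal axis, log), 1 marker for each library and 1 shape and colour for each group. NR libraries had 21, 3 and 29 peaks, NFIA astrocyte libraries 34 to 40, and DEX libraries 3 to 18 from lists of 720 to 5010 peaks.

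A site that 2 or more libraries of a group called was taken as a consensus site. NR astrocytes had 18 of them near the 6 genes, 6 at Nfkbia, 5 at Zfp36l1, 4 at Zfp36, 2 at Tsc22d3, 1 at Errfi1 and none at Dusp1 within its gene start window. Thus 5 of 6 members had an NR consensus site, as did 50.4% of all coding genes. Of the 18, 15 rested on NR R1 and R3 alone. A GR-Con library had a peak at 10 of the 18, a GR-KO library at 2, other V1 cells at 1 and DR libraries at 0. Over all 12458 NR consensus sites, 12.6% overlapped a GR-KO peak, 15.4% a peak of other V1 cells and 1.80% a DR peak. A GR-Con consensus site overlapped 7 of the 18 (38.9%), beside 29.1% of all. Of the 18, 13 were called in no GR group besides NR and GR-Con, a count without a share over all sites. An NFIA consensus site of astrocytes overlapped 17 of 18 (94.4%), beside 95.3% of all 12458 NR consensus sites. Promoters, within 500 bp of a start, held 7 of 18 (38.9%), beside 47.0% of all NR sites. GR-Con astrocytes had 7 consensus sites near the members, each overlapping an NR site, as did 92.6% of all 3945 GR-Con sites. DR and GR-KO astrocytes had 0, and 0.333% and 0.647% of all coding genes had one there. From any annotated start there were 24 sites in NR, 10 in GR-Con and 1 in DR astrocytes, the last at the Dusp1 3′ site, and 17 in DEX from 250000 nuclei and 42 for NFIA in astrocytes.

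The 13 consensus sites of DEX from 250000 nuclei comprised 9 at Dusp1, 3 at Nfkbia and 1 at Errfi1, and 8 of the 13 were also called in a DEX library from 50000 nuclei. One promoter was among them, that of Nfkbia (7.69%, beside 8.80% of all 2885 such sites). Vehicle libraries called 2 of 13 (15.4%, beside 22.1% of all). The Nfkbia promoter was also the single DEX site that overlapped an NR consensus site (7.69%, beside 7.38% of all). NFIA had 33 consensus sites in astrocytes, 9 at Zfp36, 8 at Nfkbia, 6 at Zfp36l1, 4 each at Tsc22d3 and Dusp1 and 2 at Errfi1. Of the 33, 17 (51.5%) overlapped an NR consensus site, beside 50.4% of all NFIA sites. Within their lists the member peaks had a median percentile of fold enrichment of 53.7 in NR, 58.0 in DEX from 250000 nuclei and 57.0 in NFIA astrocyte libraries.

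Motif matches near the members were few. A core of the GR element stood at 4 of 18 NR sites (22.2%), a pair at Tsc22d3 and 1 each at Nfkbia and Zfp36, beside 2.61% of all NR sites. It stood at 4 of 13 DEX sites (30.8%), 3 at Dusp1 and 1 at Errfi1, beside 12.8% of all such sites. The full element within 2 mismatches was at 0 of 18 NR and 1 of 13 DEX sites, beside 1.07% and 6.52% of all. AP-1 was at 1 of 18 NR sites and at 4 of 13 DEX sites (30.8%), the DEX ones all at Dusp1, beside 2.30% and 28.7%. The short NFI motif was at 3 of 18 NR, 0 of 13 DEX and 6 of 33 NFIA sites, beside 12.3%, 11.3% and 17.0%. Matches describe letters in the window and not occupancy.

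Other genes of the same pathways were read with the same 50 kb window. Of 16 NF-κB pathway genes, 10 had an NR consensus site (62.5%, beside 50.4% of coding genes), led by the inhibitor genes Nfkbib and Nfkbie with 6 each and by Relb with 5. Of 10 other MAP kinase phosphatases, 5 had one, led by Dusp7 with 5, and all 4 relatives of Zfp36 and Tsc22d3 had one, led by Zfp36l2 with 6 and Tsc22d4 with 5. Of 12 ERBB pathway genes 10 had one, and of 14 inflammatory genes that glucocorticoids repress 6 had one, led by Tnf with 4. DEX consensus sites from 250000 nuclei were near 4 of 16, 3 of 10, 1 of 4, 1 of 12 and 3 of 14 of these genes, beside 10.2% of coding genes. A list of 20 other glucocorticoid-induced genes had NR sites at 15, led by Mt2 with 14 and Mt1 with 13, which share a locus, and DEX sites at 15, led by Fkbp5 with 8. The lists overlap, since this one also holds Lcn2, listed among the repressed genes, and Dusp4, listed among the phosphatases. For NFIA, 12 of 16, 8 of 10, 4 of 4, 11 of 12, 8 of 14 and 17 of 20 genes passed the adjusted threshold upward in astrocytes, beside 55.2% of all coding genes (exact permutation tests with Benjamini-Hochberg adjustment), and none downward. Of the 20 glucocorticoid-induced genes, 7 were lower in DR, 10 lower in GR-KO, 2 higher in NR than in other V1 cells and 7 higher with DEX without overlap, beside 10.6%, 20.0%, 4.52% and 1.47% of all coding genes. In the GR comparisons no gene of these lists passed.

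Genes whose counts over the 39 libraries followed those of a member most closely were described by Pearson's r of log2(peaks + 1), among genes with a peak in at least 5 libraries and over 100 kb away. They were Lif, Arhgef33 and Map2k3 for Tsc22d3 (r = 0.987 to 0.975), Cbfa2t2, Rassf2 and Mt3 for Nfkbia (0.973 to 0.967), Bms1, Ddx39 and Txlna for Zfp36 (0.978 to 0.977), and Tspan9, Pla2g7 and Ankrd66 for Zfp36l1 (0.997 to 0.992). For Dusp1 they were 4931406P16Rik, Spp1 and Cfl2 (0.916 to 0.910), and for Errfi1 Ptp4a2, Mroh6 and Atp6v0a1 (0.919 to 0.907). Among the members r ran between 0.331 for Dusp1 with Zfp36 and 0.936 for Tsc22d3 with Zfp36l1. All these points share the length of each list.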

How the data were processed

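CUT&RUN peak lists of 39 of 50 samples were used, as labelled. The authors' reads were trimmed (cutadapt), mapped to mm10 (Bowtie2), cleared of duplicates (Picard) and filtered by mapping quality (SAMtools) and fragment length (deepTools), and MACS2 called peaks in each library against IgG. The deposited lists give each peak's position, summit, fold enrichment (a ratio over background) and the authors' −log10 p and −log10 q, with highest q under 0.01 in vivo and under 0.05 in 3T3 cells, so that peak numbers were not tested between these. The IgG library behind each call was not given in these sources.

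Summits within 50 kb of each gene's 5′ end (GENCODE M21) were counted, and sites were merged over libraries by an overlap of 1 bp. Group means of the counts were compared with two-sided exact permutation tests over libraries, in 3T3 cells within each number of nuclei, with Benjamini-Hochberg adjustment over all 21938 coding genes (threshold 0.05) and checked on simulated data. The simulation gave all libraries the same background means, so the check does not cover differences in list length. Groups were called not overlapping when every library of one exceeded every library of the other, in 3T3 cells at each number of nuclei. Replicate numbers came from the labels, and since libraries may share mice or cultures the p-values cover only the spread from library to library, which may be technical. The comparisons of DR and of other V1 cells share the NR libraries and are not independent. Libraries of other V1 cells pool oligodendrocytes, inhibitory and excitatory neurons, so their SD and tests mix differences between cell types with replicate spread. Python 3.11.15, numpy 2.4.6, pandas 2.3.3 and matplotlib 3.10.9 were used.

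The members and gene lists were chosen with earlier results of these data known. By rule, all members were named, with per member the site called in the most NR libraries, ties going to the highest mean percentile, and list genes by number of consensus sites. The other sites shown were chosen after their values were seen. The alternatives were windows of 10 and 100 kb, any overlap in place of the summit, any transcript start, q of at most 0.01 or 0.0001, fold of at least 5, peaks per 1000 peaks, leaving out each library, a replicate block, other consensus rules and, chosen after seeing the data, lists of at least 100 peaks.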

Additional observations from a re-analysis of the deposited data

How the results depend on the processing

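Values are differences in the mean of log2(summed peaks + 1) over the 6 genes and the number of members without overlap. They were −3.79 and 2 for DR minus NR, −2.52 and 2 for GR-KO minus GR-Con, 3.33 and 2 for NR minus other V1 cells, 2.44 and 1 for DEX minus vehicle and 4.64 and 6 for NFIA in astrocytes minus other V1 cells. With a 10 kb window they became −2.57 and 1 for DR, 2.23 and 1 for NR, 0.5 and 0 for DEX, and 3.43 and 3 for NFIA. With 100 kb, 5 members did not overlap for GR-KO and 2 for DEX, and with folds of at least 5, 1 did not for GR-KO. Per 1000 peaks the values were −1.26 for DR, −0.596 with 1 member for GR-KO, 1.02 for NR, 0.906 for DEX, and 0.756 with 3 members for NFIA. The other alternatives did not move these values or counts beyond the spread between replicates or 1.5 times, lists of at least 100 peaks included. Leaving out single libraries gave −4.68 to −3.23 (2 to 5 members, the 5 without NR R2) for DR. It gave 2.77 to 4.22 (2 to 4, the 4 without NR R2) for NR and 4.57 to 4.77 (6 to 6) for NFIA. The values were −3.52 to −1.52 for GR-KO and 2.13 to 2.88 for DEX. There each omission left 1 library in a group, so member counts are not given. Shares of all coding genes without overlap are not set beside the counts of this paragraph, which therefore describe the settings and not the members alone.

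Of 288 member values under the other alternatives, 4 reversed, 11 lost the call and 273 did neither, a difference that vanished being counted among the last. Only the NFIA comparison had calls to lose. No DR, GR-KO or DEX value could pass the threshold at all, so staying on its side was fixed in advance there. Reversed were Dusp1 for GR-KO minus GR-Con (0.5) at 100 kb (−2.0) and at any start (−1.5), and per 1000 peaks Tsc22d3 for GR-KO (0.0592) and Errfi1 for NFIA (−0.372). Leaving out NR R3 turned Dusp1 for NR minus other V1 cells to −0.111 (range −0.111 to 1.89). The cause was not tested. Deviations of same-numbered libraries correlated between −0.114 and 0.389, so the counts showed no steady pairing by replicate number. Peak counts cannot show whether such libraries were prepared together. With the replicate block all 6 NFIA calls were lost (exact permutation, adjusted p = 0.0588), where fewer arrangements raise the smallest possible p for every gene. Called in at least 1 library, consensus sites numbered 31 in NR, 14 in GR-Con and 21 in DEX, and called in every library 3 in NR.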
